A study of Mus musculus with 12 samples.

Results

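Esculetin, a plant coumarin, was compared with its vehicle in mouse liver and in a mouse macrophage line, and the transcripts followed here were those of 7 chemokine ligands (Ccl2, Ccl3, Ccl4, Ccl5, Ccl7, Ccl9 and Cxcl2) and 2 chemokine receptors (Ccr1 and Ccr2). These 9 genes were picked by symbol from the 55357 gene identifiers of each count table. The choice was made knowing that Ccr1, Ccl3 and Ccl4 were among the largest rises in the cells, so their values in the cells are given as a description without a test, while the liver comparison was not used for the choice and was tested. All cells were RAW264.7, an established mouse macrophage line labelled WT, and all received 25 µg/mL of DIL-oxLDL, a dye-carrying oxidized low-density lipoprotein, for 24 hours with either DMSO or 40 µg/mL of esculetin. All livers came from male C57BL6/J mice labelled WT, aged 8 to 9 weeks, that were gavaged for 7 days with 2.5% Tween-80 or with 90 mg/kg/day of esculetin. Fat supplied 10% of the energy in the feed of every mouse over the opening 4 days and 60% over the closing 3 days, so no group without oxLDL or without the fat-rich diet entered these comparisons. Each of the 4 groups held 3 libraries, and a liver library stood for a pool of 2 mice. The labels do not say that the cell replicates were separate cultures, so p-values in the cells measure only the spread between these libraries, which may be technical.

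Chemokines are small secreted proteins that bind heptahelical receptors coupled to inhibitory G proteins and steer the movement of leukocytes along a gradient. Ccl3, Ccl4, Ccl5 and the rodent chemokine Ccl9 act mainly on monocytes, macrophages and T cells through Ccr1 and related receptors, Ccl2 and Ccl7 draw monocytes through Ccr2, and Cxcl2 draws neutrophils through Cxcr2. Macrophages both make these ligands and carry the receptors, and several of the ligand genes are classical early targets of inflammatory signals. In the liver they are known for recruiting monocytes and neutrophils during injury and steatosis.

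The tables held 13752842 to 20001959 counts per cell library and 14659876 to 20346460 per liver library. Of 10 macrophage markers, all exceeded 3 counts in the cells, among them Csf1r, Cd68 and Lyz2. Of the lists for other leukocytes, 0 of 9 T and NK cell markers, 2 of 9 neutrophil, 1 of 6 monocyte, 4 of 5 B cell and 5 of 5 dendritic cell markers did so. Of 10 Kupffer cell markers, Marco, Cd5l, Clec1b and Folr2 exceeded 3 counts in a cell library, and Clec4f, Timd4, Vsig4, C1qa, C1qb and C1qc stayed at or below it. The liver libraries expressed all 7 hepatocyte markers and all 10 Kupffer cell markers. Levels are given as CPM (counts scaled to library size), scaled with the trimmed mean of M-values (TMM) within each table, and errors are standard deviations (SD, n = 3).

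The members lie in 4 places of the mouse genome (GRCm39). Ccl5 (chr11:83416602-83425942, minus strand), Ccl9 (chr11:83463745-83473161, minus), Ccl3 (chr11:83538670-83540191, minus) and Ccl4 (chr11:83553383-83555509, plus) form a cluster, and Ccl2 (chr11:81926397-81928279, plus) and Ccl7 (chr11:81936532-81938351, plus) lie apart on the same chromosome. Cxcl2 is at chr5:91051730-91053797 on the plus strand. The receptor genes Ccr1 (chr9:123762161-123768734, minus) and Ccr2 (chr9:123901982-123913594, plus) share a chromosome, with Ccr1l1 and Ccr3 between them. Promoter sequences were taken from a RefSeq table of build GRCm38.p6 that held 5 of the 9 members, Ccl3, Ccl9, Cxcl2, Ccr1 and Ccr2, and each was placed on GRCm39 by an exact match. Ccl2, Ccl4, Ccl5 and Ccl7 had no entry.

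The sequences below show the bases upstream of the start for 4 members whose transcripts were higher in the esculetin cells, because 2 of them hold motifs of inflammatory transcription factors and 2 hold none of those searched. Capitals mark matches to the NF-κB motif, the TATA box (TATAAA) and the AP-1 motif (TGANTCA). All are written 5′ to 3′ on the strand of the gene, and stop before the first base that GENCODE places in an exon there. Ccl9 (chr11:83469468-83469712) holds an NF-κB, an AP-1 and a TATA match, and its RefSeq start lies inside the longer GENCODE gene. Cxcl2 (chr5:91051508-91051729) holds NF-κB matches on both strands that overlap each other. Ccl3 (chr11:83540205-83540454) and Ccr1 (chr9:123768735-123768979) hold none.
Ccl9: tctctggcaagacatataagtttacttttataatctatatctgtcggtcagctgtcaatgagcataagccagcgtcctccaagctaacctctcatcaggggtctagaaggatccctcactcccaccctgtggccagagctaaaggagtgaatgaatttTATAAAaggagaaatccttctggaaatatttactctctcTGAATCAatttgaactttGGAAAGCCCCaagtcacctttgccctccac
Cxcl2: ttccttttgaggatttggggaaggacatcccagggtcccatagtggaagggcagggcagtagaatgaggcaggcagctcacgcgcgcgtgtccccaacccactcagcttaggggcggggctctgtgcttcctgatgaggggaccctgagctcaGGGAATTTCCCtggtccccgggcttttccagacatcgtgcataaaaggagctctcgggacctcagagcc
Ccl3: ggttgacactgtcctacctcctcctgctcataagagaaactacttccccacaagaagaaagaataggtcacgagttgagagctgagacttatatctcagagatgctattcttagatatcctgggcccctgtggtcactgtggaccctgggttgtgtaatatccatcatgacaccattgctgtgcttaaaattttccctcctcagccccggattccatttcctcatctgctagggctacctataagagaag
Ccr1: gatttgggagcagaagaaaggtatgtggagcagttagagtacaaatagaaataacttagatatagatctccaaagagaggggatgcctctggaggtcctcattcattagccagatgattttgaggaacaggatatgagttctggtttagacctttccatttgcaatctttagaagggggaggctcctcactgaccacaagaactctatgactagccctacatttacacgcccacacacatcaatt
Over 250 bases upstream of the start, the NF-κB motif was found in 3.90% of 32851 mouse promoters, the TATA box in 7.59%, the AP-1 motif in 6.75%, the C/EBP motif (TTGCNNAA) in 9.56% and the PU.1 motif (GAGGAAGT) in 2.44%. The TATA box was searched on the strand of the gene and the others on both strands. In Ccl9 the NF-κB match spans bases 35 to 26 before the start, the AP-1 match 53 to 47 and the TATA match 92 to 87. The Cxcl2 matches span bases 97 to 88 and 96 to 87. No C/EBP or PU.1 match was found in the 5 windows. The Ccr2 window is not printed, because 238 of its 250 bases lie in GENCODE exons of Ccr2 and only 12 come before them. The lack of a match there therefore says little about its upstream sequence. A match is a run of letters and was not tested as a binding site.

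In the cells, 6 of the 9 members were higher in every esculetin library than in every DMSO library (Ccl3, Ccl4, Ccl9, Cxcl2, Ccr1 and Ccr2), and Ccl2, Ccl5 and Ccl7 overlapped. Such a separation toward higher values was found in 31.0% of 13277 tested genes, and since the members were chosen on this contrast nothing is read from their count. The filter on low counts was passed by 7 members, with Ccl2 and Ccl7 below it. Across all tested genes, 57.7% were called at an adjusted p-value under 0.05 by the quasi-likelihood test of edgeR, 28.7% higher and 29.0% lower.

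Ccl3, a ligand of Ccr1, was measured at 76.0, 78.5 and 81.9 CPM in the DMSO libraries and at 1076.5, 2122 and 2829.6 CPM in the esculetin libraries. The means of 78.8 ± 2.97 and 2009 ± 882 CPM differed 25.5-fold (log2 fold change 4.67, SE 0.29). Even the lowest esculetin library lay far above the DMSO libraries, which differed little among themselves, while the esculetin libraries spread widely. Ccl4, the neighbouring gene that encodes an attractant of macrophages and T cells, stood at 17.3, 18.0 and 15.9 CPM with DMSO and at 276.6, 473.2 and 692.8 CPM with esculetin. Its log2 fold change was 4.82 (SE 0.29), or 28.2-fold, from means of 17.1 ± 1.10 and 480.8 ± 208 CPM. Esculetin replicate 1 was again the lowest library and replicate 3 the highest, and the groups did not overlap.

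Ccl9, a Ccr1 ligand made by mouse macrophages, was at 138.6, 146.1 and 145.7 CPM in the DMSO libraries. With esculetin it was at 651.2, 1065 and 1447 CPM, 7.35-fold more by the fitted means (log2 fold change 2.88, SE 0.23). The groups lay apart by more than the whole range of the DMSO libraries. An antisense gene, E230016K23Rik, overlaps Ccl9 on the plus strand and held 1 to 4 counts with DMSO and 8 to 18 with esculetin, against 2674 to 2996 and 8898 to 25941 counts for Ccl9. The strandedness of the libraries was not given, so reads of such pairs cannot be told apart.

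Ccl5, a chemokine of T cells and macrophages, differed least among the 7 members that passed the filter. It was at 9.38, 10.5 and 9.53 CPM with DMSO and at 9.73, 16.4 and 18.9 CPM with esculetin, and its log2 fold change was 0.62 (SE 0.21). Esculetin replicate 1 fell within the DMSO range and the other esculetin libraries lay above it. The Ccr2 ligands were near or at the detection limit. Ccl2, also known as monocyte chemoattractant protein, had 0 counts in all DMSO libraries and 1, 0 and 4 counts with esculetin. Ccl7 had 0 counts in all 6 cell libraries, and a count of 0 allows up to 3 counts per library, or 0.146 to 0.220 CPM at these depths. No fold is given for either gene.

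Cxcl2, the neutrophil-attracting CXC ligand, had 0, 0 and 1 counts with DMSO and 51, 88 and 148 counts with esculetin, or 3.73, 5.998 and 8.25 CPM. The ratio of the pooled, depth-scaled counts was 363, with an exact 95% interval of 64.6 to 14368 that covers counting error only. It is no test, because the members were chosen on this contrast. Cxcl2 passed the filter through its esculetin libraries, as did the receptors Ccr1 and Ccr2. Cxcl2 was absent or nearly so in every DMSO library and present in every esculetin library. The related ligands Cxcl1 and Cxcl3 had 0 counts in all 6 cell libraries.

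The receptor Ccr1 had 6, 8 and 6 counts with DMSO and 210, 458 and 879 counts with esculetin. These counts correspond to 0.311, 0.430 and 0.292 CPM against 15.4, 31.2 and 49.0 CPM, with a log2 fold change of 6.52 (SE 0.49). The pooled counts gave a ratio of 97.7 (exact 95% interval 63.0 to 160). This interval covers counting error only and is no test, because Ccr1 was chosen on this contrast. The groups were far apart in spite of a 3.19-fold range among the esculetin libraries. By fitted fold change Ccr1 ranked 3 among the 13277 tested genes, Ccl4 ranked 23 and Ccl3 ranked 30. These genes were known as large rises when they were chosen, so their ranks only restate the choice. Cxcl2 ranked 1, Ccr2 69, Ccl9 167 and Ccl5 2632, and the DMSO counts of Cxcl2, Ccr1 and Ccr2 were near 0. Ccr2, the receptor of Ccl2 and Ccl7, had 5, 2 and 5 counts with DMSO and 32, 54 and 40 with esculetin, or 0.203 ± 0.0833 against 2.75 ± 0.807 CPM. Its pooled ratio was 13.3 (7.33 to 26.4, again for counting error only and no test), and esculetin replicate 2 was its highest library. How reads shared with close relatives were counted is not given in the sources used here, and the Ccr1 relative Ccr1l1 had at most 1 count in any cell library.

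**Figure D1:**
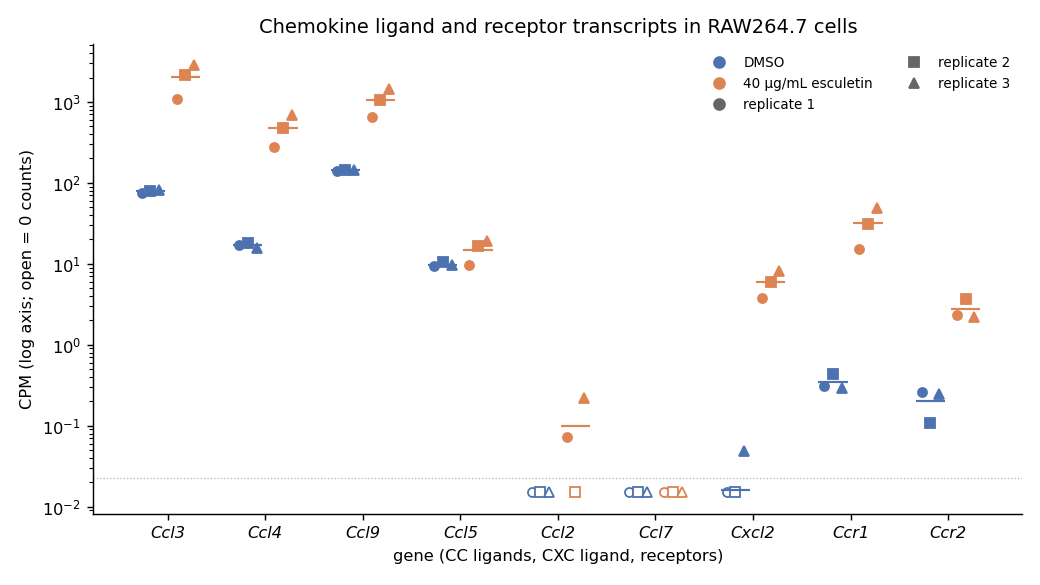
Level of the 9 genes in each RAW264.7 library, in CPM on a log axis, with DMSO in blue, esculetin in orange, a symbol for each replicate number, a bar at the group mean and open symbols for 0 counts. Ccl3, Ccl4, Ccl9, Cxcl2, Ccr1 and Ccr2 do not overlap between the groups, with Ccl3 at 76.0 to 81.9 against 1076.5 to 2829.6 CPM, whereas Ccl5 overlaps and Ccl7 is at 0 throughout.

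By count share, Ccl3 alone made up 0.107%, 0.208% and 0.270% of all counts of the esculetin libraries. The 9 members together held 0.0247% to 0.0261% of the counts with DMSO and 0.202%, 0.365% and 0.481% with esculetin. Levels between genes were compared per transcript length, as TPM (counts over exon length, scaled to a fixed total). With DMSO the order in TPM was Ccl3 (422 ± 16.2), Ccl9 (192 ± 4.43), Ccl4 (103 ± 5.96), Ccl5 (39.6 ± 1.96) and Ccr1 (0.504 ± 0.104), and each of these lay apart from the next. Ccr2 at 0.125 ± 0.0523 TPM overlapped with Cxcl2. With esculetin Ccl3 stood first at 10398 ± 4562 TPM, apart from Ccl4 at 2809 ± 1211 TPM, which overlapped with Ccl9 at 1359 ± 512 TPM. Within each esculetin library, however, Ccl4 exceeded Ccl9, at 1599, 2807 and 4021 against 831, 1394 and 1853 TPM. With DMSO their order was the reverse. The ranges of Ccl5 at 58.7 ± 18.7 TPM and Ccr1 at 45.1 ± 23.7 TPM overlapped between libraries. Inside every esculetin library the receptor stayed below this ligand, at 21.5, 44.8 and 68.9 against 37.6, 65.2 and 73.4 TPM. Cxcl2 followed at 11.6 ± 4.38 TPM and Ccr2 at 1.64 ± 0.504 TPM.

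The members varied together among the esculetin libraries. The highest library exceeded the lowest 2.63-fold for Ccl3, 2.51-fold for Ccl4, 2.22-fold for Ccl9, 2.21-fold for Cxcl2, 1.94-fold for Ccl5, 3.19-fold for Ccr1 and 1.65-fold for Ccr2, against a median of 1.26-fold over all tested genes and 1.25-fold over the genes called higher. A range as wide as that of Ccl3 was found in 1.94% of the genes called higher. Replicate 1 was lowest and replicate 3 highest for 6 of the 7 members that passed the filter, all but Ccr2, and the same order held for 28.7% of all tested genes and 41.6% of those called higher. Total counts also followed this order, with 13752842, 14954496 and 18801094 counts. So did the summed level of 10 macrophage markers, at 5805, 6897 and 8799 CPM, of which Lyz2 gave 2584, 3200 and 4704 CPM. Adgre1, Mertk and Ptprc ran the other way. The part of depth or of these markers in the spread of the chemokines was not tested.

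**Figure D2:**
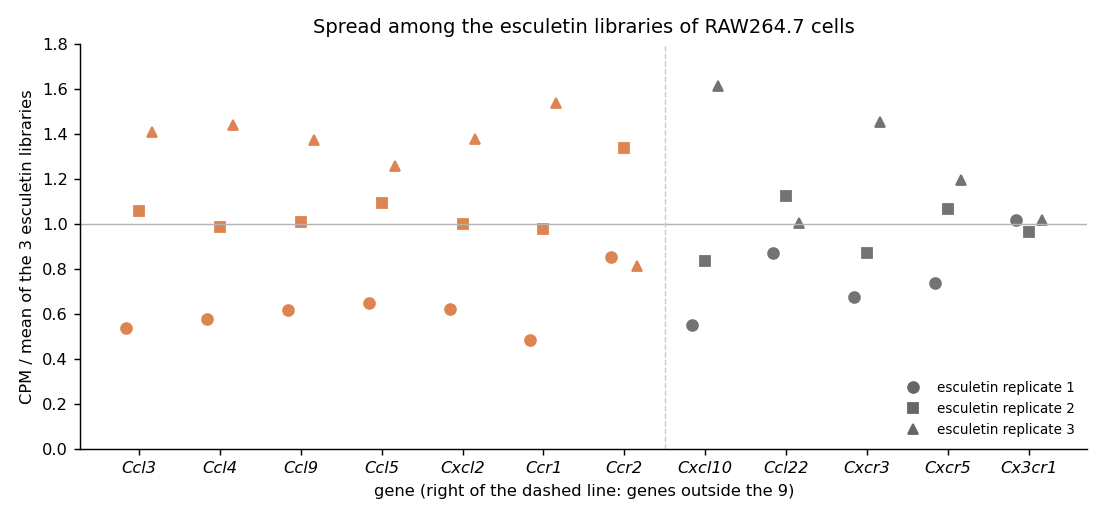
CPM of each gene in the 3 esculetin libraries of RAW264.7 cells, divided by their mean, with a symbol for each replicate, for the 7 members that passed the filter in orange and 5 other chemokine-system genes in grey. Ccl3 runs from 0.536 to 1.41 and Ccr1 from 0.482 to 1.54, with replicate 1 lowest, Cxcl10 outside the 9 spreads as widely, from 0.552 to 1.61, and Cx3cr1 stays between 0.964 and 1.02.

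Within each library the ratio of Ccl3 to Ccl4 counts stayed nearly fixed, at 4.40, 4.36 and 5.17 with DMSO and 3.89, 4.49 and 4.08 with esculetin, so both moved by the same factor to within the spread of the libraries. In contrast, the ratio of Ccl9 to Ccl3 counts was 1.82, 1.86 and 1.78 with DMSO and 0.605, 0.502 and 0.511 with esculetin, without overlap. The ratio of Ccl3 to Ccr1 counts was 244, 182 and 281 with DMSO and 70.1, 68.0 and 57.7 with esculetin. Ligand and receptor differed in fold, while within the esculetin libraries their ratio was steadier than the level of either.

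Profiles of 12160 genes over the 6 cell libraries were compared by the root mean square difference of log2 levels, each centred on its DMSO mean. Ccl4 was the most like both Ccl3 (0.13) and Ccr1 (0.32). The next most like Ccl3 was Gpr35, an orphan receptor linked to kynurenic acid (0.27), and for Ccl4 it was Hbegf, a growth factor of the EGF family (0.27). After Ccl4, the genes most like Ccr1 were Ccl3 (0.41) and Hbegf (0.51). Gpr35 stood at 0.0486 to 0.156 CPM with DMSO and 8.56, 12.4 and 14.7 CPM with esculetin. Hbegf stood at 0 to 0.377 CPM and at 9.81, 19.0 and 20.5 CPM. All of these libraries share the treatment contrast, so likeness describes the profiles and no more.

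The rest of the chemokine family was mostly silent in these cells. Of 54 other ligands and receptors, 33 never exceeded 3 counts in a cell library, 20 of them at 0 throughout, and 11 passed the filter. Of those 11, 7 rose and 0 fell by the edgeR test, against 28.7% and 29.0% of all tested genes. Their median log2 fold change was 1.21, against -0.01 over all tested genes. Cxcl10 and Ccl6 passed the filter through their esculetin libraries, and a gene near 0 with DMSO could enter this set only by rising. Nothing about the family is therefore read from the direction of the 7 calls or from the median. Cxcl10, the interferon-inducible ligand of Cxcr3, rose by 4.28 on the log2 scale (SE 0.43, edgeR adjusted p = 1.01e-05) from 0.533 ± 0.148 to 10.4 ± 5.68 CPM. It was at 5.71, 8.66 and 16.7 CPM in the esculetin libraries. Its receptor Cxcr3 rose too, from 2.23, 2.85 and 2.82 to 9.00, 11.7 and 19.4 CPM (log2 fold change 2.35, SE 0.28, edgeR adjusted p = 2.95e-05). Cx3cr1, the fractalkine receptor of monocytes and microglia, was the most abundant of these receptors by TPM, and in CPM it stood at 42.2 ± 1.10 against 141.8 ± 4.44 CPM (log2 fold change 1.75, SE 0.08, edgeR adjusted p = 8.74e-08). In contrast to the members, its esculetin libraries were tightly grouped at 144.5, 136.7 and 144.2 CPM. Cxcr5, the receptor that guides lymphocytes to follicles, rose by 1.78 (SE 0.25, edgeR adjusted p = 9.98e-05) on the log2 scale and the Ccr4 ligand Ccl22 by 1.39 (SE 0.33, edgeR adjusted p = 0.00402).

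The remaining called genes were near the threshold and are named because they are so few. Ccl6, a Ccr1 ligand encoded between Ccl9 and Ccl3, had 8, 8 and 9 counts with DMSO and 13, 17 and 16 with esculetin (log2 fold change 1.21, SE 0.40, edgeR adjusted p = 0.0229). The non-signalling receptor Ccrl2 had 11, 13 and 22 counts against 20, 20 and 31 (log2 fold change 0.95, SE 0.36, edgeR adjusted p = 0.042). Ccl6 was called in 7 of 13 alternative fits and Ccrl2 in 6 of 14, whereas the other 5 genes were called in every one. Ccl25, Cxcl16, Ccr10 and Cxcr6 did not pass the test.

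Signalling components downstream of the receptors changed in both directions. Of 36 listed genes for receptor signalling and migration, 34 were tested, 15 rose and 11 fell, with a median log2 fold change of 0.17. Over all tested genes 28.7% rose and 29.0% fell. The largest rises among genes of at least 10 CPM were those of Rgs16, Rgs1, Grk5 and Ptk2b. Rgs16, a GTPase activator of inhibitory G proteins, rose from 34.5 ± 2.83 to 288.6 ± 40.4 CPM (log2 fold change 3.06, SE 0.12, edgeR adjusted p = 3.36e-08). Rgs1, of the same family, went from 51.3 ± 3.91 to 201.5 ± 36.4 CPM (1.97, SE 0.13, edgeR adjusted p = 5.64e-07), and the receptor kinase Grk5 from 8.94 ± 0.826 to 29.6 ± 3.72 CPM (1.73, SE 0.14, edgeR adjusted p = 1.8e-06). Ptk2b, a calcium-sensitive tyrosine kinase of migrating macrophages, rose by 1.37 (SE 0.10, edgeR adjusted p = 1.37e-06) on the log2 scale. Among those that fell, Pik3cd, a catalytic subunit of PI3-kinase, dropped from 108.5 ± 3.86 to 42.7 ± 0.699 CPM (log2 fold change -1.35, SE 0.08, edgeR adjusted p = 3.18e-07). The receptor kinase Grk2 (-0.63), the PI3-kinase adaptor Pik3r5 (-0.57) and the Rac exchange factor Prex1 (-0.49) fell less, and edgeR gave adjusted p-values of 7.56e-05, 0.000282 and 0.000916.

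Factors known to act on chemokine transcription or mRNA decay, a list that mixes promoting and inhibiting factors, moved mostly upward. Of 29 listed genes 26 were tested, 16 rose and 6 fell, and the median log2 fold change was 0.45. The shares over all tested genes were 28.7% and 29.0%. The AP-1 subunits Fos and Jun rose by 2.91 (SE 0.14, edgeR adjusted p = 9.94e-08) and 2.33 (SE 0.12, edgeR adjusted p = 1.55e-07) on the log2 scale. Jun stood at 40.9, 44.0 and 45.0 CPM with DMSO and at 252.9, 220.3 and 178.1 CPM with esculetin. Among the regulators named in this paragraph, Jun and Zfp36l1 had esculetin libraries ordered opposite to those of Ccl3. Tnf, Socs3, Cebpb, Rela, Zfp36l2 and Elavl1 ran in the order of Ccl3, and Fos, Zfp36, Hnrnpd and Rel in neither. The cytokine Tnf rose from 16.4 ± 0.224 to 111.8 ± 18.6 CPM (2.77, SE 0.13, edgeR adjusted p = 8.03e-08) and the cytokine signalling inhibitor Socs3 from 8.32 ± 0.765 to 43.0 ± 10.3 CPM (2.37, SE 0.17, edgeR adjusted p = 1.07e-06). The study asks about the transcription factor C/EBPβ, and Cebpb, named for that reason, was at 36.1, 39.5 and 39.8 CPM with DMSO and at 83.4, 85.3 and 113 CPM with esculetin (2.45-fold, edgeR adjusted p = 6.49e-06). The mRNA decay factors Zfp36l1 and Zfp36l2 fell by 1.55 (SE 0.18, edgeR adjusted p = 2.97e-05) and 0.43 (SE 0.11, edgeR adjusted p = 0.00493) on the log2 scale, whereas their relative Zfp36 rose by 1.07 (edgeR adjusted p = 3.72e-06) and the RNA-binding decay factor Hnrnpd by 1.27 (edgeR adjusted p = 8.37e-07). The NF-κB subunit Rel and the RNA-stabilizing protein Elavl1 fell by 0.68 and 0.46 (adjusted p from edgeR 0.000452 and 0.00156), while the subunit Rela rose by 0.62 (edgeR adjusted p = 0.000456). Marker lists moved beside these genes. The summed level of the 10 macrophage markers was 2448 to 2620.0 CPM with DMSO and 5805 to 8799 CPM with esculetin. Most of this rise was that of Lyz2, from a mean of 638 to 3496 CPM, followed by Cd14 (117 to 953 CPM) and Csf1r (848 to 1654 CPM). Of 9 tested markers 6 were called higher and 0 lower, against 28.7% and 29.0% of all tested genes. Cd68, Fcgr1 and Ptprc were not called, and Ptprc had a log2 fold change of -0.27. Dendritic cell markers summed to 4.14 to 4.33 against 12.6 to 24.4 CPM, mostly from Itgax. B cell markers summed to 170.5 to 183.4 against 29.6 to 56.7 CPM and Kupffer cell markers to 2.63 to 2.80 against 1.17 to 1.68 CPM. Endothelial markers summed to 2.92 to 3.66 against 3.88 to 4.91 CPM. These 5 lists did not overlap between the groups, and their part in the chemokine values was not tested.

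**Figure D3:**
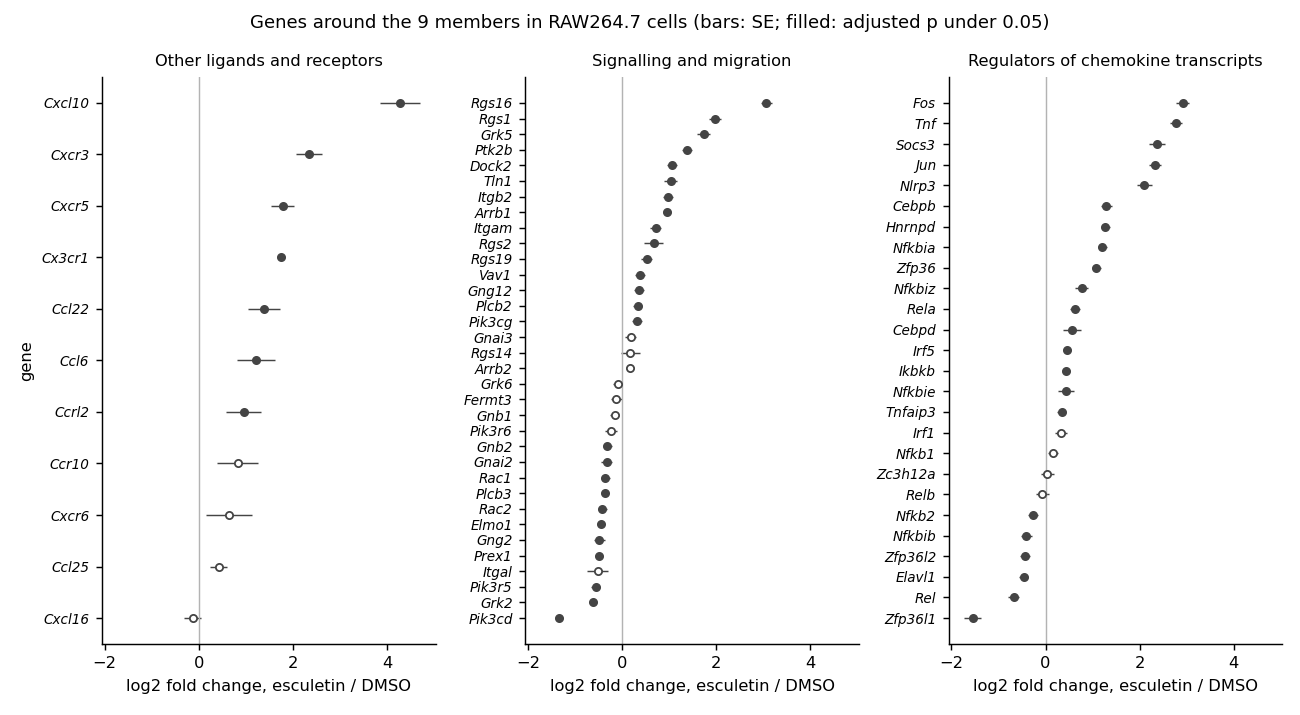
Log2 fold change of esculetin over DMSO in RAW264.7 cells for the tested genes of 3 lists, the other chemokine ligands and receptors (11 genes), receptor signalling and migration (34) and regulators of chemokine transcripts (26), with bars for the SE and filled points for an edgeR adjusted p-value under 0.05. Among ligands and receptors all 7 filled points lie to the right of 0, from Ccrl2 at 0.95 to Cxcl10 at 4.28, and the other panels hold filled points on both sides.

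Few genes beside the members on the chromosome were expressed in the cells. Within 100 kb of a member lay 37 other genes, of which 7 passed the filter in the cells. Apart from Ccl6, which rose, Fyco1, on the far side of Xcr1 from Ccr1, fell slightly, from 57.3 ± 7.26 to 44.0 ± 9.08 CPM (log2 fold change -0.39, SE 0.15, edgeR adjusted p = 0.0396). Taf15 and Heatr6, on either side of the Ccl cluster, were well expressed and not called, at 69.9 ± 6.96 against 65.1 ± 4.07 CPM and at 60.4 ± 1.27 against 58.5 ± 5.77 CPM. The chemokine genes Ccl8, Ccl11 and Ccl12, which lie with Ccl2 and Ccl7, had 0 counts in all cell libraries.

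In the liver, where whole tissue was sequenced, the transcripts other than Ccl9 were scarce and 0 of the 9 were called by edgeR. Fewer cells of a type and less RNA per cell cannot be told apart in such samples. Only Ccl9 and Ccl5 passed the filter, and neither had an unadjusted p under 0.05. Across the 12813 tested liver genes 0.0859% were called, and without a filter, with all 9 members tested, the lowest adjusted p of a member was 0.496 and 2 members, Ccl9 and Ccr1, had an unadjusted p under 0.05. DESeq2 and limma-voom called 0 members as well.

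By TPM Ccl9 was the most abundant of the 9 in the liver, and its CPM values were 60.4, 82.5 and 87.0 CPM in vehicle livers and 78.9, 111.5 and 92.0 CPM in esculetin livers. The log2 fold change was 0.30 (SE 0.16, edgeR adjusted p = 0.651), and the groups overlapped. In TPM it stood at 83.6 ± 10.4 with vehicle and 98.1 ± 18.5 with esculetin, apart from all other members. Ccl5 had 13, 16 and 21 counts with vehicle and 22, 5 and 7 with esculetin (log2 fold change -0.47, SE 0.51, edgeR adjusted p = 0.832). By counts esculetin replicate 1 was the highest of the 6 libraries and the other esculetin libraries the lowest, and without that replicate the log2 fold change was -1.26.

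The other 7 members had at most 14 counts in a liver library. The monocyte chemokine Ccl2 had 13, 12 and 14 counts with vehicle and 6, 6 and 9 with esculetin, and Ccr1 had 3, 2 and 8 against 0, 1 and 0, so these 2 transcripts were lower in every esculetin library. Groups that did not overlap in this direction were found in 7.95% of the tested liver genes. Pooled counts gave ratios of 0.588 (exact 95% interval 0.329 to 1.02) for Ccl2 and 0.0840 (0.00198 to 0.559) for Ccr1, and these intervals leave out the spread between livers. Ccl4 was the reverse, with 1, 4 and 2 counts against 5, 4 and 6, which separated the groups in CPM but not in counts, and 6.52% of tested genes lay apart in this direction. Its pooled ratio was 2.34 (0.898 to 6.78). In an exact two-sided permutation test of CPM, which cannot give a p below 0.1 with 3 against 3 libraries, Ccl2, Ccl4 and Ccr1 reached that smallest p, and their Benjamini-Hochberg adjusted value over the 9 members compared was 0.3.

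Ccr2 had 12, 14 and 8 counts in vehicle livers and 5, 9 and 9 in esculetin livers. Ccl7 had 5, 0 and 5 against 2, 3 and 1, Ccl3 had 0, 2 and 1 against 1, 1 and 3, and Cxcl2 had 2, 0 and 0 against 1, 0 and 0. All 4 overlapped between the groups, and at this depth no difference of these genes was detected. Summed Kupffer cell markers were at 472 to 610 CPM with vehicle and 475 to 531 CPM with esculetin, and macrophage markers at 165 to 204 against 163 to 179 CPM, of which Lyz2 made up the largest share. Single markers were nonetheless lower in every esculetin liver, as were 7.95% of all tested liver genes. They were Csf1r (54.8 ± 3.55 against 45.0 ± 1.86 CPM), Cd68 (15.1 ± 2.03 against 10.7 ± 1.43 CPM), Adgre1, Spi1 and the Kupffer cell marker Marco (4.34 ± 0.356 against 2.54 ± 0.320 CPM). Their edgeR adjusted p-values ran from 0.364 for Marco to 0.666 for Spi1. All other macrophage and Kupffer cell markers overlapped, among them Lyz2 and Cd14 with positive log2 fold changes (0.11 and 0.34). T and NK cell markers summed to 3.93 to 6.18 against 6.70 to 6.95 CPM and B cell markers to 12.2 to 14.7 against 6.87 to 10.6 CPM, without overlap, and their part in the chemokine values was not tested.

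**Figure D4:**
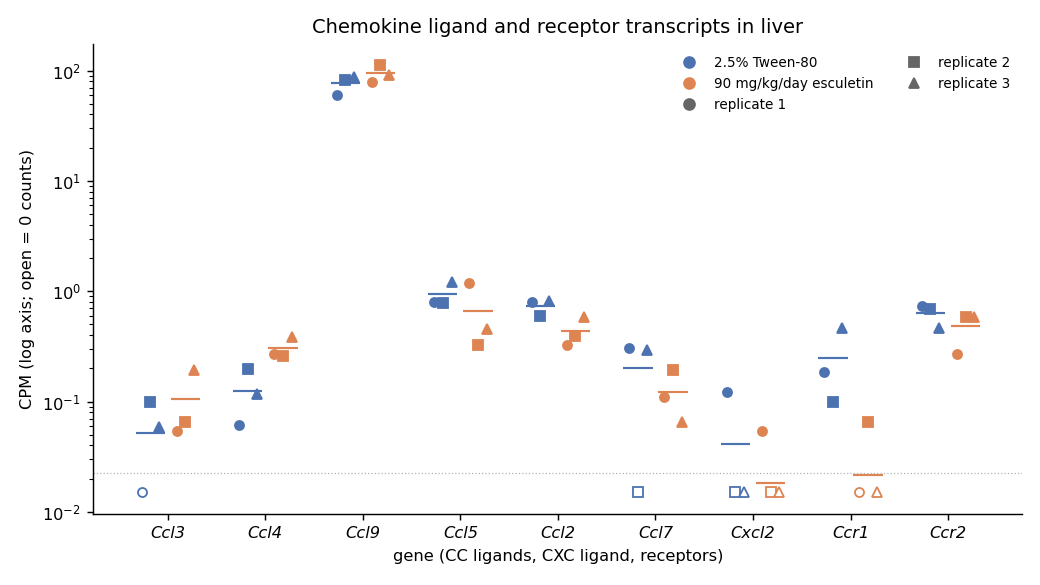
Level of the 9 genes in each liver library, in CPM on a log axis, with vehicle in blue, esculetin in orange, a symbol for each replicate number, a bar at the group mean and open symbols for 0 counts. Ccl9 stands apart from the other genes at 60.4 to 111.5 CPM and overlaps between the groups, while all others are at or below 1.22 CPM.

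Other genes of the family were not called in the liver either. Of the 54 other ligands and receptors 25 were tested and 0 were called by edgeR, with 2, Cxcl12 and Pf4, at an unadjusted p under 0.05, which 1072 of all 12813 tested liver genes had. The stromal ligand Cxcl12 was the most abundant of them by TPM, and in CPM it was at 373, 378 and 312 CPM with vehicle and 266, 303 and 242 CPM with esculetin. Its groups did not overlap, but the log2 fold change of -0.39 (SE 0.13) missed the threshold (edgeR adjusted p = 0.457). Cxcl9, Ccl6, Cxcl16 and Ccl27a had means of 12.8, 11.6, 11.2 and 8.53 CPM with vehicle and 10.1, 12.9, 11.03 and 6.69 CPM with esculetin, and edgeR gave them adjusted p-values of 0.72, 0.827, 0.981 and 0.64 in the same order. Cebpb stood at 47.8, 74.3 and 70.0 CPM with vehicle and 97.6, 96.9 and 121 CPM with esculetin, groups that did not overlap and did not pass the test (edgeR adjusted p = 0.209). Of the 31 tested signalling and migration genes and the 25 tested regulators, 0 were called by edgeR, with 6 and 5 at an unadjusted p under 0.05.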

How the data were processed

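RNA was sequenced in 12 libraries, and the authors deposited unnormalised counts of reads per gene in separate tables for liver and RAW264.7 cells. Libraries were prepared with the NEBNext Ultra RNA kit and read as 150-bp paired ends. Per the submitters' processing notes and the study's methods, reads were aligned with HISAT2 2.2.1 to GRCm39 and counted with featureCounts. Library strand, multi-mapping rules and the gene annotation used for counting are not given in the sources used here. Symbols, coordinates and exon lengths came from GENCODE for GRCm39, in which 54749 of 55357 identifiers matched.

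Each table was scaled and fitted alone in R 4.3.3 with edgeR 4.0.16 (filterByExpr, TMM, glmQLFit and glmQLFTest, no covariates besides treatment). Two-sided p-values received a Benjamini-Hochberg adjustment across every tested gene of the table, with calls made under 0.05. CPM uses TMM factors, and levels of the liver and of the cells were normalised separately. The SE of a log2 fold change is its size divided by the root of F. For members with few counts, counts were pooled over 3 libraries and the ratio given with an exact (Clopper-Pearson) 95% interval for counting error, and a count of 0 was read as at most 3 counts. TPM used exon lengths from the annotation. Likeness of profiles used log2(CPM + 0.5), each gene centred on its DMSO mean, for genes of at least 1 CPM on average. The script was tested on simulated data. Python 3.11.15, pandas 2.3.3, numpy 2.4.6 and scipy 1.17.1 were used for tables and exact tests.

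The members and the gene lists were chosen with earlier results of these data known. All members were named. From the other lists the text names the largest called rises and falls, up to 5 ligands or receptors of at least 1 CPM and up to 4 rises and 4 falls of at least 10 CPM per other list, and the 5 ligands or receptors with the highest mean CPM in the liver. Genes outside this rule are Ccl6, Ccrl2, Cebpb, Pf4, Zfp36, Hnrnpd, Rela, the receptors and ligands at or near 0 counts, and chromosomal neighbours. Alternatives were other scalings, filters and tests (DESeq2 1.42.0, limma-voom of limma 3.58.1), the study's criterion of an unadjusted p under 0.05 and a fold change over 1.5, a block for the replicate number, and leaving out each library.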

Additional observations from a re-analysis of the deposited data

Results flagged for a closer look

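Ccr1 was higher in every esculetin library of the cells and lower in every esculetin library of the liver, where its mean was 0.0216 CPM with esculetin against 0.250 CPM with vehicle. The liver values rest on 13 vehicle and 1 esculetin counts in all. Ccrl2 showed the same opposite directions, at 1.29 CPM in esculetin livers against 1.75 CPM in vehicle livers (edgeR adjusted p = 0.758). Over all tested genes, the groups lay apart toward higher values in 31.0% in the cells and toward lower values in 7.95% in the liver. The pattern was not particular to these receptors, since Fos, Dock2 and Csf1r also had it. For neither receptor was the difference between cells and liver tested.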

How the results depend on the processing

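The count of called liver genes was unstable. Against 11 as reported, it was 0 with library size only, 339 without a filter, 98 with DESeq2, 499 under the study's criterion and 123 with the replicate block, and leaving out 1 library gave 0 to 31. It was 0 without vehicle replicate 2, esculetin replicate 1 or esculetin replicate 3, and 31 without vehicle replicate 3, and the cause was not tested. The number of members called in the liver stayed at 0 in every alternative. The liver log2 fold change of Ccl9 ran from 0.15 to 0.40 (adjusted p 0.263 to 0.994) and that of Ccl5 from -1.26 to -0.17 (adjusted p 0.749 to 0.994). In the cells 7667 genes were called as reported and 5041 under the study's criterion, which also gave 12 signalling and migration genes against 26 and 13 regulators against 22, and this criterion demands a minimum fold. Members in the cells kept their direction, with log2 fold changes of 4.34 to 4.97 for Ccl3, 4.46 to 5.10 for Ccl4, 2.58 to 3.13 for Ccl9, 0.42 to 0.85 for Ccl5, 6.06 to 6.85 for Ccr1 and 3.42 to 3.89 for Ccr2. Of the called genes of the other lists, 5 of 26 signalling genes and 5 of 22 regulators lost their call in at least 1 alternative fit. Same-numbered libraries did not deviate together throughout (r = 0.14, -0.01 and 0.10 in the liver, 0.16, -0.03 and 0.08 in the cells), so the samples share a number and are not treated as pairs. Depth limits the liver values of all members but Ccl9.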
